A study of Mus musculus with 8 samples.

Results

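The comparison described here sets cultured mouse lungs treated with IQ1 for 24 h against control lungs cultured for the same time. It rests on 2 of the 8 arrays of the series, 1 of IQ1 and 1 of control lungs, and covers the 24304 named genes of the array, each read from the spot that was brightest on average over the 8 arrays. Lungs were taken from C57BL/6J embryos at E12.5, laid on filters and kept in medium with serum, either treated with 10 µM of IQ1 or given vehicle alone. PBS is named in the labels as the vehicle, whereas the methods state that IQ1 was dissolved in DMSO and that controls received PBS or DMSO as vehicle. Which of these the 24 h control received is not given for the array itself. The label of the IQ1 array at 24 h also mentions inhibition of FGFR2b, and grouping followed the treatment entry, IQ1 or control. RNA from several lungs was pooled before each 24 h array was made, and the number of lungs in a pool is not given in the sources used here. The other 6 arrays hold 3 IQ1 and 3 control samples after 9 h and serve only as values beside the 24 h difference. They share no sample with the 24 h arrays.

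IQ1 is a small molecule that lowers the interaction of β-catenin with its coactivator EP300. β-catenin carries the canonical WNT signal into the nucleus, where it binds TCF/LEF factors and recruits EP300 or the related CBP. At this stage the lung is a branching epithelial tree. FGF10 from the distal mesenchyme acts on FGFR2b at the epithelial tips and keeps them in a progenitor state, while the stalks become bronchial epithelium wrapped in smooth muscle. A plexus of capillaries grows around the tips and the mesothelium covers the organ. The RNA came from whole homogenised lungs, so every level averages over these tissues, and fewer cells of a type and less RNA per cell cannot be told apart.

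All levels are log2 intensities that the authors quantile-normalised, so they give each gene's place among the genes measured together, and a difference of 1 log2 stands for a 2-fold ratio. With 1 array per condition there was no replicate check at 24 h, no test was made and no p-value is given. Of the 24304 genes, 1371 were higher with IQ1 by more than 1 log2 (5.64%) and 1209 were lower by more than 1 log2 (4.97%), and the median difference was 0.02. Most of these lay among weak signals. In the 12152 genes whose mean over the 8 arrays was above that of the median gene, called bright below, 274 were higher (2.25%) and 246 were lower (2.02%). In the dim genes 17.0% passed 1 log2 in either direction, against 4.28% of the bright genes. Of the dim genes 9.03% were higher and 7.92% were lower. The lists below hold bright and dim genes, and every count of list members is to be read beside these shares. For comparison, the share of bright genes that differed by more than 1 log2 between arrays of the same treatment at 9 h was 1.23%, 4.15% and 7.75% in the 3 pairs of IQ1 arrays and 0.428% in the pair of control replicates 1 and 3. The number of genes past 1 log2 at 24 h was therefore within the range seen between IQ1 arrays at 9 h, and the differences below rest on agreement among genes and among spots and on the 9 h arrays. Control replicate 2 at 9 h stood apart from all others (Pearson r of 0.58 to 0.60 over all spots, against 0.95 to 0.98 among the other 7 arrays and 0.98 between the 24 h arrays), and values at 9 h are given without it unless stated.

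**Figure D1:**
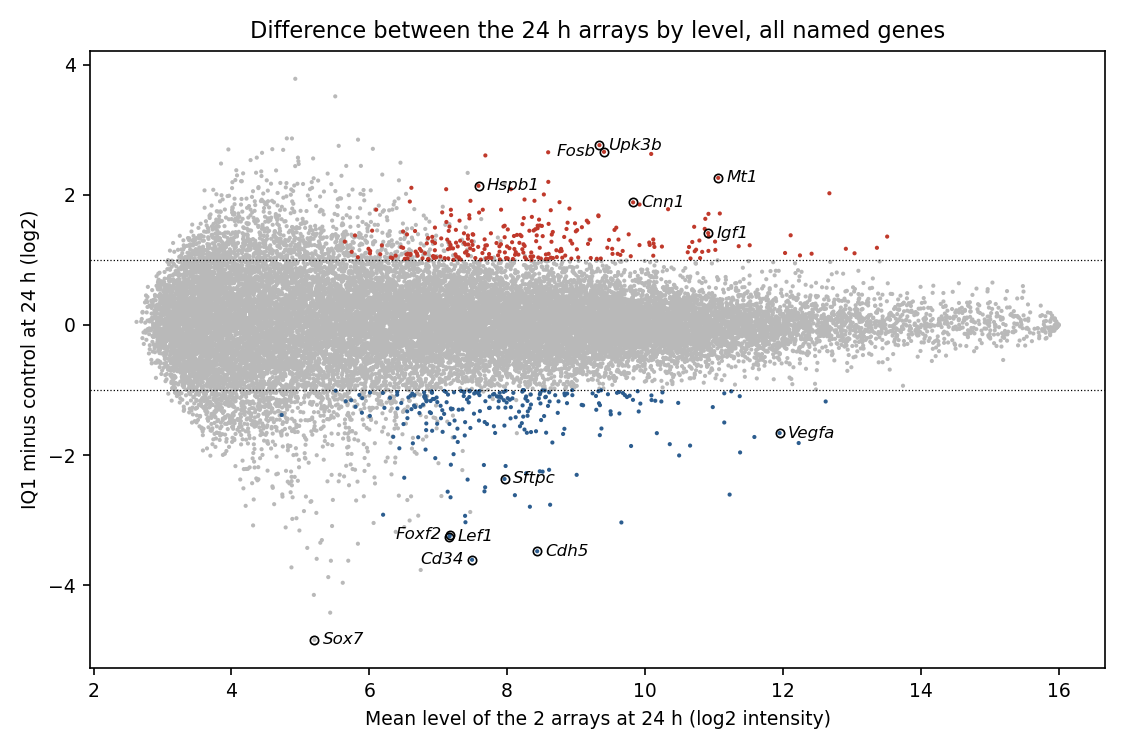
Each point is a gene, with the mean level of the 2 arrays at 24 h (log2 intensity) on the x axis and IQ1 minus control (log2) on the y axis. Red points are the 274 bright genes higher by more than 1 log2, blue points the 246 bright genes lower by more than 1 log2, and dotted lines mark 1 log2 in each direction. The spread narrows from weak to strong signals, and the genes of largest difference among the bright ones are lower with IQ1.

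Where a gene had more than 1 bright spot, the other spots mostly pointed the same way. Among the 274 bright genes that were higher, 65 had at least 1 other bright spot, and in 60 of them (92.3%) every other bright spot was also higher. Among the 246 that were lower, 65 had another bright spot, and in 59 (90.8%) every one was also lower. Among the 4705 genes with several bright spots and a difference within 1 log2 the corresponding share was 50.7%. The other spots passed 1 log2 in the same direction in 20 of the 65 higher genes and in 27 of the 65 lower genes, whereas this held for 1.91% of the genes within 1 log2. Across the 4835 genes with at least 2 bright spots the differences of the brightest and the second spot had a Pearson r of 0.44, and their median distance was 0.29 log2. Second spots were closer to 0. In the genes that were higher the median was 1.23 log2 for the brightest spot and 0.84 log2 for the second, and in the genes that were lower it was −1.19 and −0.89 log2. Whether the spots of a gene carry different probes or repeats of a probe is not given in the sources used here.

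**Figure D2:**
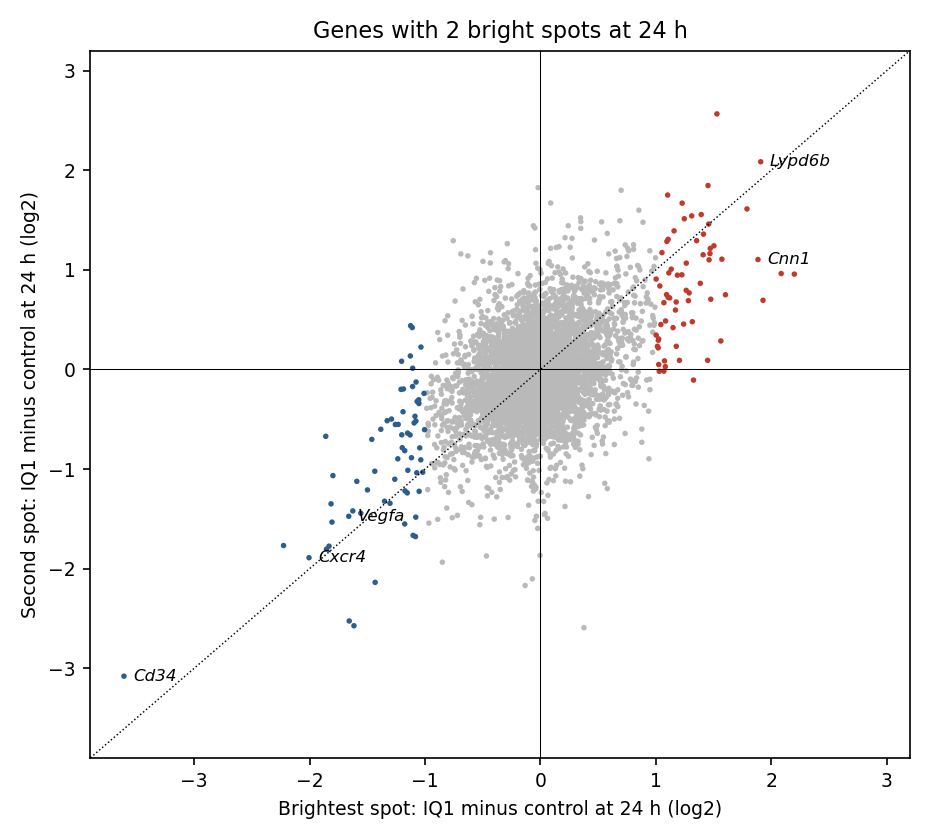
Each point is a gene with at least 2 bright spots, with IQ1 minus control at 24 h (log2) by the brightest spot on the x axis and by the second brightest on the y axis. Red and blue points are the 130 genes past 1 log2 by the brightest spot, of which 62 of 65 higher and 59 of 65 lower genes had a second spot of the same sign. The dotted line marks equal differences.

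The most marked group at 24 h was the endothelium. Of 23 measured surface and junction genes of endothelial cells, 16 were lower with IQ1 by more than 1 log2 and none was higher, where the shares over all genes were 4.97% and 5.64%, and the median of the list was −2.23 log2. Cd34, a sialomucin on the surface of endothelial and haematopoietic progenitor cells, was at 5.69 with IQ1 and 9.30 in the control, a difference of −3.61 and the lowest among all bright genes. Its second spot gave −3.08. At 9 h the 3 IQ1 arrays had Cd34 levels of 4.88, 5.50 and 5.90, against 9.09 and 9.03 in control replicates 1 and 3 and 9.16 in replicate 2. The IQ1 and control levels of Cd34 thus did not overlap at either time, also with replicate 2 counted.

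Cdh5, which encodes the cadherin of endothelial junctions, was at 6.70 with IQ1 and at 10.17 in the control (−3.48). Cldn5, a claudin of the same junctions, was at 5.86 with IQ1 and 8.42 in the control, and Pecam1, an adhesion receptor, at 6.24 with IQ1 and 8.61 in the control. Kdr, the main receptor of VEGF-A, had 5.70 with IQ1 and 7.68 in the control, and was dim, as were its other spots, which gave −2.35 and −1.64. The angiopoietin receptor gene Tek and its relative Tie1 were lower by 1.98 and 2.63 log2. Esm1, made by sprouting tip cells, was lower by 2.71 log2, and the adhesion molecule gene Icam2 had 5.08 with IQ1 and 8.09 in the control, with Esam, of the same class, lower by 3.43 log2. The members that stayed within 1 log2 by their brightest spots were Eng, Plvap, Clec14a, Mmrn2, Flt1, Gpihbp1 and Aplnr, with differences between −0.67 and 0.44. The dim spots of Flt1 gave −1.37, −2.20 and −0.34. Eng was dim, and its second spot gave 0.71 where the brightest gave −0.67. All 16 differences past 1 log2 were larger than the largest difference between 2 arrays of the same treatment at 9 h for that gene, which also held for 93.1% of all bright genes lower by more than 1 log2, and the median over the list between such arrays was at most 0.33 log2 in size. Of the 23 genes, 9 were bright, and 5 of the 16 past 1 log2 were, so the share over bright genes is not fully alike in kind.

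The transcription factors of the lineage behaved alike. Of 16 measured, 10 were lower by more than 1 log2, none was higher, and the median was −1.12. Sox7, a SOXF factor of early endothelium and a dim gene, had 2.78 with IQ1 and 7.62 in the control. The IQ1 value was close to 2.49, the lowest of the table, so the size of the difference is uncertain. At 9 h Sox7 was at 4.16, 4.17 and 4.12 with IQ1, against 7.52 and 7.33 in the controls. Bcl6b was at 4.79 with IQ1 and 7.97 in the control, and Lmo2, a partner of haematopoietic factors, at 6.59 with IQ1 and 8.74 in the control. The ETS factors Fli1, Ets1 and Elk3 were lower by 1.71, 1.44 and 1.27 log2. Erg, another ETS factor of this lineage, was dim and had 4.57 with IQ1 and 5.00 in the control. Sox17, also dim, had 6.73 with IQ1 and 6.92 in the control by its brightest spot. Its other spots gave 0.41 and −3.06, so the spots of Sox17 differ. Large differences were also found outside these lists. Arap3, a GTPase-activating protein downstream of PI3K, was at 8.14 with IQ1 and 11.17 in the control, and Dusp2, a nuclear phosphatase of MAP kinases, at 5.92 with IQ1 and 8.86 in the control.

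Signals to the endothelium and their receptors were lower in part. Vegfa, the growth factor that vessels require, was strongly expressed and had 11.12 with IQ1 and 12.78 in the control, and its other spots gave −1.47, −1.10 and, for the dimmest, −1.80. At 9 h Vegfa was at 10.35, 10.54 and 10.68 with IQ1, against 12.57 and 12.26 in the controls, with no overlap. Vegfd was at 5.85 with IQ1 and 6.75 in the control, whereas Vegfb and Pgf differed by −0.01 and 0.06 log2. Cxcr4, the receptor of the chemokine CXCL12, had 9.49 with IQ1 and 11.50 in the control, with −1.89 by its second spot, and Cxcl12 itself had 9.77 with IQ1 and 10.73 in the control. In the Notch pathway 6 of 15 genes were lower, 2 of them bright, and 1 was higher by more than 1 log2. The list median was −0.43, and it was −0.043 over the 8 bright members. Notch4, an endothelial receptor, was lower by 2.04 log2, the target genes Heyl, Nrarp and Hey1 by 1.61, 1.42 and 1.06, and Lfng, a glycosyltransferase that modifies Notch receptors, was higher by 1.39. Notch4 and Heyl were dim. The other spots of Notch4 gave −0.32 and 0.04, and that of Heyl gave 0.28.

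Blood cells did not share the endothelial pattern. None of 10 erythroid genes passed 1 log2. The embryonic globin Hbb-y was at 15.25 with IQ1 and 14.93 in the control, and Alas2, the first enzyme of haem synthesis in red cells, at 8.39 with IQ1 and 8.40 in the control. Of 16 genes of macrophages and other leukocytes, 6 were higher and 1 was lower, with a median of 0.75 log2. Tyrobp, an adaptor of myeloid receptors, had 11.44 with IQ1 and 10.14 in the control. C1qc, a complement chain made by macrophages, had 9.20 with IQ1 and 7.83 in the control. The receptor gene Csf1r, which defines the lineage, was read from a spot at 13.55 with IQ1 and 13.73 in the control, while its second spot gave 0.32. Ptprc, the pan-leukocyte phosphatase, differed by 0.10 by its brightest spot and by 0.02 to 1.23 by its dim spots. Spi1, the factor that specifies myeloid cells, was dim, with 3.68 with IQ1 and 5.34 in the control.

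**Figure D3:**
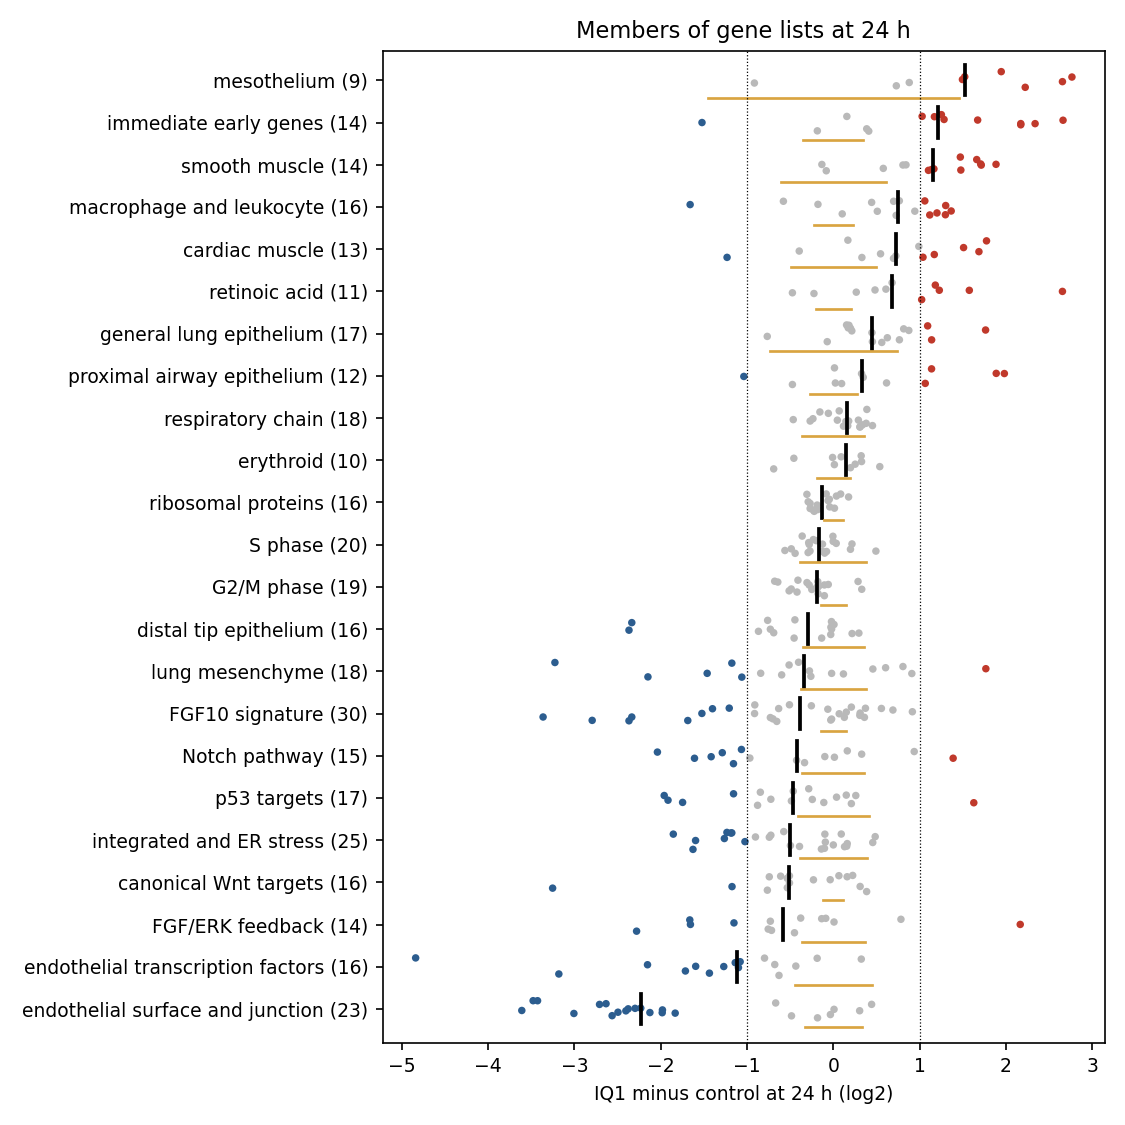
Members of 23 gene lists, with IQ1 minus control at 24 h (log2) on the x axis and the number of measured members in brackets. Points are genes, red above 1 log2 and blue below −1 log2, black bars are list medians, and the yellow line under each list spans the largest list median between 2 arrays of the same treatment at 9 h, in both directions. The endothelial lists have medians of −2.23 and −1.12, and the mesothelium, immediate early and smooth muscle lists have medians of 1.52, 1.21 and 1.15.

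The metallothionein genes Mt1 and Mt2 were strongly expressed and higher with IQ1. Metallothioneins are small proteins that bind zinc and other metals, and the factor MTF1 switches their genes on through metal response elements. Mt1 was at 12.19 with IQ1 and 9.93 in the control (2.26), and a second, dim spot gave 1.07. Mt2 was at 13.69 with IQ1 and 11.66 in the control (2.02). At 9 h Mt2 was at 12.12, 12.35 and 12.28 with IQ1, against 9.33 and 8.98 in the controls, so IQ1 and control levels were apart at both times. The control levels of Mt1 and Mt2 were also higher at 24 h than at 9 h. Slc30a1, a zinc exporter and another target of MTF1, was higher by 1.36 log2, and its counterpart Slc39a10, a zinc importer, had 9.40 with IQ1 and 9.92 in the control. Mtf1 itself, Mt3, Slc30a2 and Slc39a14 lay between −0.21 and 0.38, and the median over the 8 measured genes of the zinc list was 0.105. Mt1 and Mt2 are related genes, and spots of such genes may share signal, which was not tested.

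The promoters of the 3 genes past 1 log2 are shown because these genes were the 3 of 8 measured members of the zinc list that were higher together. Each window runs from 250 bases before to 50 after the RefSeq gene start (GRCm38.p6, plus strand, written in the direction of transcription), and capitals mark each match to the core of the metal response element, TGCNCNC with the first N being A or G, on either strand. Mt1 is at chr8:94178839-94179138, Mt2 at chr8:94172368-94172667 and Slc30a1 at chr1:191906531-191906830.
Mt1: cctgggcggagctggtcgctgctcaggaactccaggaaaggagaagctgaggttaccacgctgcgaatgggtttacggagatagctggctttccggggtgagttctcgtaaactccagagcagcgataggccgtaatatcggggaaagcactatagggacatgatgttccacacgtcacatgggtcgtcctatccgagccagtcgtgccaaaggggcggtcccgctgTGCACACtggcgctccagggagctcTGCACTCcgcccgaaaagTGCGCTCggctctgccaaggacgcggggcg
Mt2: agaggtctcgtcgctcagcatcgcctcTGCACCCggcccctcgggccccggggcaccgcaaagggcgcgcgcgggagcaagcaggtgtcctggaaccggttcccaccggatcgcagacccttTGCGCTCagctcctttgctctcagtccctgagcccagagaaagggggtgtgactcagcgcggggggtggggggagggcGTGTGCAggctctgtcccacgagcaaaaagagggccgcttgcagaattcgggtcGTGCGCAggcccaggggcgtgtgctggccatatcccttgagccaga
Slc30a1: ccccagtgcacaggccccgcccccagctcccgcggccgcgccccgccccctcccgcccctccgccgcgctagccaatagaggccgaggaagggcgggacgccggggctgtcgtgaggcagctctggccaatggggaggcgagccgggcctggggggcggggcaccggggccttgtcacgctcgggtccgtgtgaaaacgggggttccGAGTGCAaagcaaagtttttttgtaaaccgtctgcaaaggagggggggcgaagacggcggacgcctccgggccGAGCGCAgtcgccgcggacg
The core was found 3 times in the Mt1 window, 4 times in that of Mt2 and 2 times in that of Slc30a1. It was common elsewhere: 25.7% of 32851 promoter windows of the same length held at least 1 match and 1.97% held 3 or more. Counted per gene, as the list members are, 28.2% of 27025 genes held a match. Of the 4 list members within 1 log2 that had a window, 2 also held a match. A match is a string of letters and not a measured site.

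Genes of the mesothelium were higher with IQ1. Of 9 measured, 6 were higher by more than 1 log2 and none was lower, and the median was 1.52. Upk3b, a uroplakin that marks mesothelial cells, had 10.72 with IQ1 and 7.96 in the control (2.76), the highest difference among all bright genes. Gpm6a, a membrane glycoprotein, had 10.33 with IQ1 and 8.83 in the control, and the WNT agonist Rspo1 was higher by 1.52 log2. Bnc1, a zinc finger factor, and Lrrn4 were higher by 1.95 and 2.22 log2, and both were dim. Wt1, the factor that defines the layer, was at 11.86 with IQ1 and 10.98 in the control. This list varied widely between samples of the same treatment at 9 h. The 3 IQ1 arrays had Upk3b levels of 11.39, 9.88 and 9.34, and the median of the list differed by up to 1.45 log2 between IQ1 arrays, about as much as the 1.52 log2 at 24 h. How much of the surface layer each dissected lung carried was not measured.

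Aldh1a2, which makes retinoic acid in the mesothelium and the mesenchyme, was at 9.92 with IQ1 and 7.27 in the control (2.65). It counts in the mesothelial and in the retinoic acid list. Of 11 retinoic acid genes 5 were higher by more than 1 log2, none was lower, and the median was 0.68. Aldh1a1, another enzyme of the same step, was higher by 1.58 log2, and Dhrs3, a retinal reductase that responds to retinoic acid, by 1.23. The degrading enzymes Cyp26a1 and Cyp26b1 were higher by 1.18 and 1.02 log2, the first of them dim. The receptor gene Rarb, itself a target, was at 9.41 with IQ1 and 8.73 in the control. Cyp26b1 had a 9 h difference in the other direction, with −0.75 log2 and IQ1 arrays all below the controls.

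Smooth muscle genes were another group that was higher. Of 14 measured, 9 were higher by more than 1 log2 and none was lower (median 1.15), and 12 of the 14 were bright. Cnn1, the calponin of contractile cells, had 10.77 with IQ1 and 8.88 in the control (1.88), with 1.10 by its second spot. Synpo2, an actin-bundling protein, was higher by 1.47 log2 and by at least 1.22 at its other bright spots. Acta2, the actin isoform that defines the tissue, was at 13.59 with IQ1 and 12.49 in the control, Actg2 at 11.60 with IQ1 and 10.13 in the control, and Myl9 at 11.94 with IQ1 and 10.23 in the control. Myocd, the cofactor that drives the contractile programme, was dim and higher by 1.71 log2. Myh11, the myosin of the same cells, had 12.64 with IQ1 and 11.80 in the control, and its other bright spots gave 1.04 and 1.09. By the brightest of its spots Tpm1, an actin-binding protein that most cells make, differed by −0.13, and its other spots gave 0.22, 0.32 and 1.09. Cald1, of the same kind, differed by −0.08 by its brightest spot and by 0.07 to 1.14 by the others. At 9 h the list median was 0.40 log2 and 9 of the 14 genes had IQ1 arrays all above the controls, where 14.6% of all bright genes did. Between arrays of the same treatment the list median reached 0.61 log2.

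Of 13 cardiac genes 5 were higher and 1 was lower, with a median of 0.72. Actc1, the cardiac actin that embryonic smooth muscle also makes, was higher by 1.51 log2 and the calcium release channel gene Ryr2 by 1.69. Myh6 and Myh7, the defining myosins of heart muscle, were dim in both arrays and differed by 0.55 and −0.40, and whether heart tissue was carried along was not tested.

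The canonical WNT pathway showed a difference in few genes. Lef1, a DNA-binding partner of β-catenin and itself a WNT target, was at 5.54 with IQ1 and 8.79 in the control (−3.25), and its dim spots gave −1.52 and −0.17. At 9 h Lef1 had 7.01, 8.05 and 7.70 with IQ1, against 8.77 and 8.24 in control replicates 1 and 3, which did not overlap, and replicate 2 was below all of them at 5.31. Lgr5, a receptor for R-spondins, was dim and lower by 1.17 log2 by its brightest spot, whereas its second spot gave 0.56. The other 14 of the 16 target genes stayed within 1 log2 by their brightest spots. Axin2, the most general target of the pathway, was dim, with 5.97 with IQ1 and 6.72 in the control by its brightest spot. Its second spot gave 0.54. Tcf7, another partner of β-catenin, had 7.23 with IQ1 and 7.99 in the control by its brightest spot (−0.76), while its second, bright spot gave −1.49 and its dim spot −1.30. Bambi, an inhibitor of BMP and TGF-β receptors, had 9.26 with IQ1 and 9.79 in the control, and Notum, a secreted WNT inhibitor, 11.13 with IQ1 and 10.91 in the control. The list median was −0.51 log2, and it was −0.083 over the 10 bright members. None of 12 genes for β-catenin and its partners passed 1 log2. Ctnnb1 was at 14.66 with IQ1 and 14.78 in the control, Ep300 at 7.99 with IQ1 and 8.09 in the control, and Crebbp, the gene of CBP, at 14.50 with IQ1 and 14.82 in the control. IQ1 has also been described as a ligand of the phosphatase PP2A, and among 13 PP2A subunit genes only Ppp2r2b passed 1 log2, with 9.06 with IQ1 and 7.42 in the control.

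Among the WNT ligands, Wnt2, which the lung mesenchyme makes, was at 6.11 with IQ1 and 8.26 in the control. The dim gene Wnt9a and Rspo1 were higher by 1.31 and 1.52 log2, and the other 11 ligand and R-spondin genes stayed within 1 log2, with Wnt5a at 12.02 with IQ1 and 11.66 in the control and Wnt7b, the epithelial ligand, at 7.67 with IQ1 and 7.69 in the control. The mesenchymal factors were lower in part. Of 18 mesenchymal genes 5 were lower and 1, the dim gene Twist1, was higher by more than 1 log2, with a median of −0.34. Foxf2, a forkhead factor, had 5.56 with IQ1 and 8.78 in the control (−3.23). Its relative Foxf1 had 10.44 with IQ1 and 10.46 in the control. The T-box genes Tbx3 and Tbx2 were lower by 1.46 and 1.06 log2, whereas Tbx4 and Tbx5 differed by −0.26 and −0.51. Pdgfrb, the receptor of pericytes and other mural cells, was at 8.03 with IQ1 and 9.20 in the control.

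FGF signalling was read from the genes that ERK induces and that feed back on it. Of 14 measured, 4 were lower by more than 1 log2 and 1 was higher, with a median of −0.58. The ETS factor Etv1 was at 7.14 with IQ1 and 9.42 in the control. Dusp6, the ERK phosphatase most directly tied to FGF signalling, was at 9.34 with IQ1 and 11.00 in the control, and at 9 h at 9.17, 9.10 and 9.23 with IQ1, against 11.15 and 11.13 in the controls and 11.37 in replicate 2. Dusp4 had 7.74 with IQ1 and 9.39 in the control, and the ERK inhibitor gene Spred1 had 9.25 with IQ1 and 10.40 in the control. Dusp5, which was dim, was higher by 2.17 log2. Etv5 and Etv4, the ETS factors of the tip epithelium, had 10.19 and 11.38 with IQ1 and 10.92 and 11.51 in the control. Spry2, a feedback inhibitor expressed at the tips, had 9.15 with IQ1 and 9.14 in the control, and a 9 h difference of −0.52 with no overlap. Fgf10 was at 8.39 with IQ1 and 8.80 in the control, its receptor gene Fgfr2 at 10.54 with IQ1 and 10.25 in the control, and Fgf18, another ligand, was higher by 1.73 log2.

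An FGF10 signature of genes that depend on this ligand in the lung epithelium had been defined on other arrays, in which FGFR2b was inhibited, and the list used here holds a part of it, the members that the main text names. Of 30 measured, 8 were lower by more than 1 log2 and none was higher, with a median of −0.38 at 24 h and −0.39 at 9 h. Tspan8, a tetraspanin, was dim and lower by 3.36 log2. Lama3, a laminin chain of the epithelial basement membrane, was at 6.93 with IQ1 and 9.73 in the control. Lin7a, a polarity protein, was dim and lower by 2.34, and the kelch protein gene Enc1 by 1.21. The semaphorin gene Sema4f had 7.84 with IQ1 and 9.24 in the control. The median was −0.064 over the 19 bright members. A figure legend names 9 further members, of which 8 were measured, and with these added 10 of 38 were lower and none was higher, with a median of −0.32. The added genes that were lower were Sh3bgrl2 and Rrp9.

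Some genes had also been followed by qPCR in treated explants and form a panel here. Of its 13 genes, 3 were lower on the 24 h array by more than 1 log2, 10 were within 1 log2 and 11 had a difference below 0. Sftpc, the surfactant protein that marks the tip lineage from early on, was at 6.78 with IQ1 and 9.15 in the control (−2.37). At 9 h Sftpc had 9.70, 9.35 and 9.30 with IQ1, against 10.41 and 10.31 in the controls. Ctnnd2, a catenin of the delta family, was at 6.95 with IQ1 and 8.47 in the control by its brightest spot, whereas its second, dim spot gave 0.50. The 9 h difference of Ctnnd2 was −0.44, and its 9 h arrays overlapped. Pthlh, a secreted signal from epithelium to mesenchyme, was dim, at 4.33 with IQ1 and 6.02 in the control. Sox9, the factor of the tip progenitors, had 8.25 with IQ1 and 9.12 in the control by its brightest spot (−0.87) and −1.09 by the second. Sftpa1, Sftpb, Sp5, Cytl1 and Shh were dim and differed by −0.66, 0.07, −0.51, −0.63 and −0.03. Etv4, Bspry and Gprc5a differed by −0.14, −0.06 and 0.15 and Etv5 by −0.73.

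Of 17 markers of the epithelium as a whole, 3 were higher by more than 1 log2 and none was lower, and the median was 0.45. Between IQ1 arrays at 9 h the median of this list differed by up to 0.74 log2, more than at 24 h. Epcam, an adhesion molecule of all epithelial cells, was at 10.38 with IQ1 and 10.21 in the control, and Nkx2-1, the factor that specifies lung epithelium, at 10.65 with IQ1 and 11.42 in the control. Krt19, an intermediate filament protein that mesothelial cells also make, was higher by 1.76 log2, and Krt8 was at 10.07 with IQ1 and 8.98 in the control. Cdh1, the epithelial cadherin, was dim on the array and gave 4.57 with IQ1 and 4.37 in the control. Of 16 genes of the tip epithelium, Sftpc and Lin7a were lower by more than 1 log2 by their brightest spots, and the list median was −0.29. Sox9 passed 1 log2 by its second spot, as given above. Id2, a factor of the tip progenitors, was at 11.27 with IQ1 and 11.29 in the control by its brightest spot, whereas its second, bright spot was at 8.71 with IQ1 and 10.03 in the control (−1.32), so the spots of Id2 differ. Of 12 genes of the proximal airway 4 were higher and 1 was lower. Sox2, which marks the stalk, was dim and higher by 1.14 log2, and Cldn10, a claudin of airway cells, was at 9.70 with IQ1 and 7.82 in the control. The basal cell gene Trp63 was read from a spot at 14.40 with IQ1 and 14.38 in the control while its second spot was at 5.31 with IQ1 and 6.14 in the control, and which of the spots follows the gene is not known. The alveolar type 1 list held 2 higher genes and 1 lower gene of 11, with Pdpn higher by 1.62 log2. The surfactant list held 4 higher genes and 2 lower genes of 13, and 3 of its members were bright.

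Immediate early genes, which cells switch on within minutes of a stimulus or of handling, were higher at 24 h. Of 14 measured, 9 were higher by more than 1 log2 and 1 was lower, with a median of 1.21, and the median over the same genes at 9 h was 0.13. Fosb was at 10.74 with IQ1 and 8.07 in the control (2.66) by its bright spot, while its other spot was dim, at 3.59 with IQ1 and 3.79 in the control. At 9 h Fosb had 6.64, 7.49 and 6.66 with IQ1, against 6.73 and 6.86 in the controls, which overlap. Atf3, a stress-induced factor, was at 8.60 with IQ1 and 6.26 in the control, and Nr4a1, an orphan nuclear receptor, at 10.16 with IQ1 and 8.49 in the control. Egr1 and Egr2, zinc finger factors of the same class, were higher by 1.17 and 1.25 log2, and Fos and Jun, the parts of AP-1, by 2.17 and 1.03. Junb and Jund differed by −0.19 and 0.16, and Fosl1, dim in both, was lower by 1.52. The control array at 24 h also had higher levels than the 9 h controls for Fosb, Nr4a1 and Egr2. The time between taking lungs from culture and lysis is not given in the sources used here, and its part in these values was not tested. Of the 10 differences past 1 log2, 7 were larger than the largest difference between arrays of the same treatment at 9 h. This held for 86.5% of all bright genes higher by more than 1 log2. The shares are not alike in kind, since only 5 of the 9 higher genes were bright and the lower one was dim.

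Genes of the integrated stress response, which ATF4 switches on when amino acids are short or protein folding is disturbed, were lower. Of 25 measured genes of this response and of endoplasmic reticulum stress, 8 were lower by more than 1 log2 and none was higher, with a median of −0.50. All 8 are known as targets of ATF4. Mthfd2, a mitochondrial enzyme of folate metabolism, had 9.73 with IQ1 and 11.58 in the control, with −1.80 by its second spot, and Shmt2, which acts in the same pathway, had 8.73 with IQ1 and 9.96 in the control. Trib3, a pseudokinase induced by ATF4, was at 8.03 with IQ1 and 9.63 in the control, and Asns, asparagine synthetase, at 9.65 with IQ1 and 10.82 in the control. Psat1, an enzyme of serine synthesis, was lower by 1.26 log2 and Vldlr by 1.63. The cystine transporter gene Slc7a11 was lower by 1.19 and the glutathione-degrading enzyme gene Chac1 by 1.02, both of them dim. The other spots of Slc7a11 gave 0.33, 0.18 and 0.08, so its spots differ. Atf4 itself was at 13.10 with IQ1 and 13.68 in the control. The chaperone genes of the endoplasmic reticulum Hspa5, Pdia4 and Hyou1 differed by −0.10, −0.09 and 0.15.

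Stretches of the promoters of 5 of these 8 genes are shown, since they hold the letters of the element through which ATF4 acts with C/EBP factors. Capitals mark the match to TGATGNAA on either strand, with 16 bases on each side, in the direction of transcription (RefSeq, GRCm38.p6). The stretches lie at chr2:152344023-152344062 for Trib3 and chr6:7693209-7693248 for Asns, both on the minus strand, at chr3:50443637-50443695 on the minus strand for Slc7a11, and at chr2:119351033-119351072 for Chac1 and chr19:27216804-27216843 for Vldlr on the plus strand.
Trib3: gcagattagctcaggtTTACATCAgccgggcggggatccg
Asns: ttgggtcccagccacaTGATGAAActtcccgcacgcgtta
Chac1: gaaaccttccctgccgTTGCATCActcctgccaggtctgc
Slc7a11: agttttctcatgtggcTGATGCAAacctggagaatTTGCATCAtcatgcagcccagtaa
Vldlr: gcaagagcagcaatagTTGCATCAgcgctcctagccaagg
Slc7a11 held 2 matches in opposite directions. Of the 15 list members within 1 log2 that had a promoter window, 2 held a match, and 3.97% of all 32851 windows did. Counted per gene, as the list members are, the share was 4.51% of 27025 genes. The motif was chosen after the values of these genes were seen, and the counts are a description.

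Of 17 targets of p53, 4 were lower and 1 was higher, where the shares over all genes were 4.97% and 5.64%. The list median was −0.46, and 3 of the 4 lower genes were bright. Plk2, a polo-like kinase, was at 10.40 with IQ1 and 12.36 in the control, and Eda2r, a receptor of the TNF family, at 5.86 with IQ1 and 7.77 in the control. Cdkn1a, the inhibitor of cyclin-dependent kinases, was dim and lower by 1.75 log2, and Btg2, also dim, was higher by 1.63. Mdm2 differed by −0.24. Of 22 genes of hypoxia and glycolysis only Vegfa passed 1 log2 by the brightest spot, and the list median was 0.13 at 24 h and −0.38 at 9 h. Aldoc had many bright spots, of which the brightest gave 0.25 and the others −0.13 to 2.57, so its spots differ. Ldha was at 11.42 with IQ1 and 11.80 in the control at 24 h, and its 9 h difference was −0.97 with no overlap. Of 23 genes of sterol and fatty acid synthesis 2 were lower, Scd1 by 1.38 and Stard4 by 1.04 log2, and the list median was −0.26 at 24 h against −0.66 at 9 h.

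Cell cycle genes differed little. None of 20 S phase genes and none of 19 genes of G2 and mitosis passed 1 log2, with medians of −0.16 and −0.19. Mki67, made in all cycling cells, was at 13.51 with IQ1 and 13.67 in the control, and Pcna, the sliding clamp of replication, at 14.34 with IQ1 and 14.63 in the control. At 9 h 13 of the 20 S phase genes had IQ1 arrays all below the controls, where 16.0% of all bright genes did, and the list median was −0.37. None of 16 ribosomal protein genes and none of 18 respiratory chain genes passed 1 log2, with medians of −0.13 and 0.16. Of 18 genes of ribosome biogenesis and Myc only Rrp9 passed 1 log2 by the brightest spot, with 7.70 with IQ1 and 8.83 in the control, while 15 of the 18 had a difference below 0 and the list median was −0.43. Igf2, the imprinted fetal growth factor, was strongly expressed and had 13.96 with IQ1 and 12.77 in the control.

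Further genes were named because every bright spot they had passed 1 log2 in the same direction. Among those that were lower, Vcan, a large proteoglycan of embryonic matrix, had 11.32 with IQ1 and 13.14 in the control, with −1.35 and −1.15 by its other spots. Bcat1, which breaks down branched-chain amino acids, was lower by 1.62 and by 2.57 log2 at its second spot, and the sialyltransferase gene St8sia4 had 8.57 with IQ1 and 10.16 in the control. Sh3bgrl2 and Lhfpl2 were lower by 2.23 and 1.81 log2. These 5 genes also had 9 h IQ1 arrays all below the controls. Adh1, an alcohol dehydrogenase that also acts on retinol, was at 7.46 with IQ1 and 9.11 in the control, with −2.53 by its second spot, and Rftn2, a lipid raft protein, at 6.38 with IQ1 and 8.18 in the control. The 9 h differences of Adh1 and Rftn2 were −0.02 and 0.01, and their 9 h arrays overlapped.

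Among the supported genes that were higher, Il15, a cytokine for lymphocytes, had 9.80 with IQ1 and 8.01 in the control, with 1.61 and 2.48 as the lowest and highest difference of its other bright spots. Igf1, the growth factor of mesenchymal cells, was at 11.62 with IQ1 and 10.21 in the control, with 1.36 by its second spot. Lox, which crosslinks collagen, had 9.84 with IQ1 and 8.33 in the control, with 1.24 by its second spot, and Col12a1, a collagen that binds to fibrils, was higher by 1.31 and by 1.54 log2 at its second spot. Sema3d, a guidance cue that mesothelial cells make, was higher by 1.46 log2, Myrf, a membrane-bound transcription factor, by 1.39, the scaffold gene Slc9a3r1 by 1.46 and Lypd6b, of the Ly6 family, by 1.91. Zim1, an imprinted zinc finger gene, and Ugt1a6b, a glucuronosyltransferase whose locus shares exons with its relatives, were higher by 1.35 and 1.41 log2. Of these 10 genes, Col12a1, Zim1 and Ugt1a6b overlapped at 9 h, and Col12a1 had a 9 h difference of −0.18.

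The remaining genes of largest difference had no other bright spot in support, except Cd55. Cym, the gene of the milk-clotting protease chymosin, had 8.99 with IQ1 and 6.38 in the control, and its 9 h difference was larger still at 4.14 log2. S100a6, a calcium-binding protein, had 11.40 with IQ1 and 8.77 in the control, and Hspb1, a small heat shock protein that muscle expresses strongly, had 8.65 with IQ1 and 6.51 in the control. Cd55, which shields cells from complement, was higher by 2.20 log2 by its brightest spot and by 0.84 and 0.96 by the others. Among the lower genes, Kcnj2, an inward rectifier potassium channel, had 5.88 with IQ1 and 8.91 in the control, and Chn2, a GTPase-activating protein for Rac, had 4.74 with IQ1 and 7.66 in the control. Kcnj2 and Chn2 were also lower in all 3 IQ1 arrays at 9 h, with differences of −1.41 and −1.78.

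**Figure D4:**
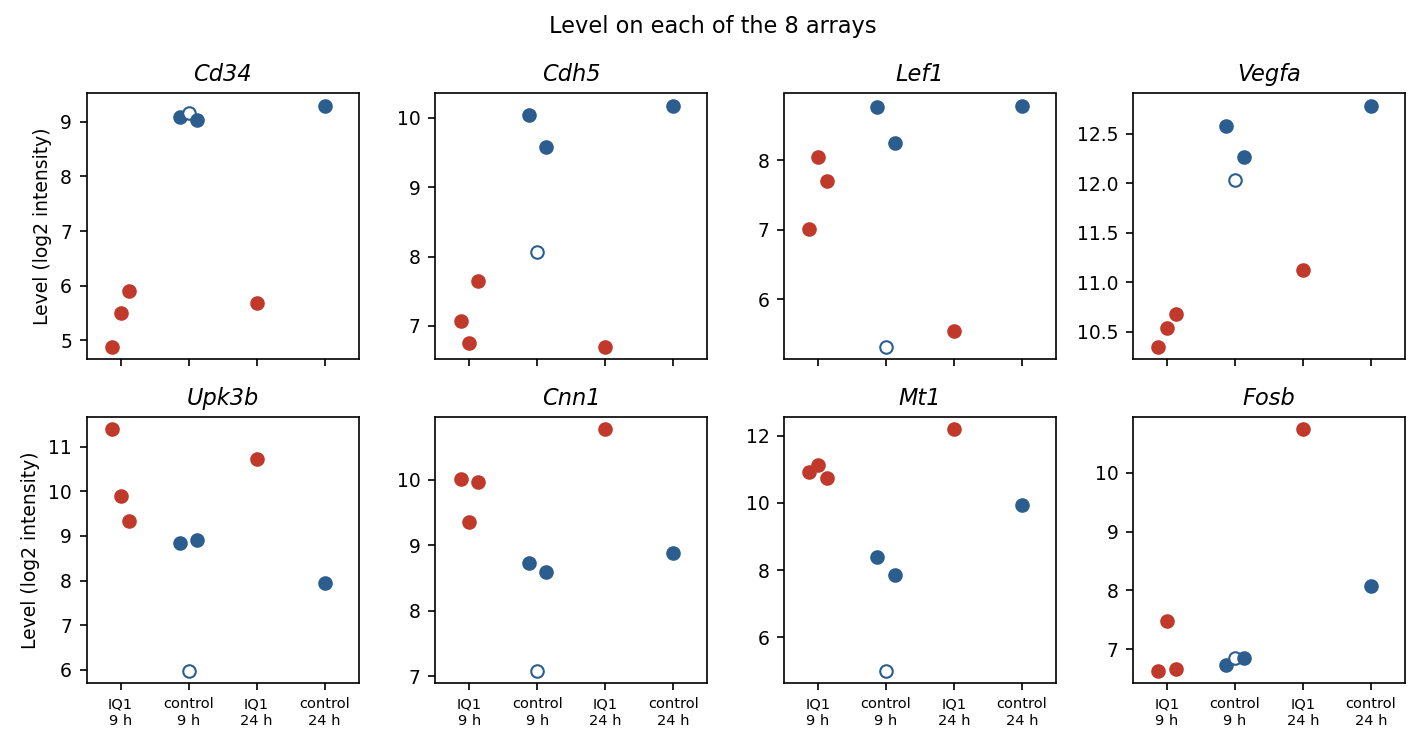
Levels of 8 named genes (log2 intensity, y axis) on each of the 8 arrays, grouped on the x axis by treatment and time, with IQ1 in red and control in blue. Each point is an array, and the open circle is control replicate 2 at 9 h, which stood apart over all spots. Cd34, Cdh5 and Vegfa are low with IQ1 at both times, Mt1 and Cnn1 are high at both times, and Fosb is apart only at 24 h.

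The 24 h differences were mostly found with the same sign at 9 h. Of the 274 bright genes higher at 24 h, 245 (89.4%) had a 9 h difference above 0, and of the 246 lower genes 211 (85.8%) had one below 0, where 50.2% and 49.8% of all bright genes did. In 151 of the 274 genes (55.1%) all IQ1 arrays at 9 h were above both controls, against 14.6% of all bright genes, and in 156 of the 246 genes (63.4%) all were below, against 16.0%. With control replicate 2 included, 112 of the 274 genes were above all controls (11.5% of all bright genes were) and 56 of the 246 were below (4.47% were). Across the 12152 bright genes the 9 h and 24 h differences had a Pearson r of 0.52 and a Spearman rho of 0.41, and across all 24304 genes an r of 0.29. With replicate 2 included the r over bright genes was 0.24. Genes share arrays and are not independent, so no p is given. Among genes past 1 log2 at 24 h the median difference was 1.22 for the higher and −1.24 for the lower ones, and at 9 h it was 0.60 and −0.58 in the same genes. The largest difference between arrays of the same treatment at 9 h was smaller than the 24 h difference in 237 of the 274 higher and in 229 of the 246 lower genes, and in 25.3% of all bright genes.

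**Figure D5:**
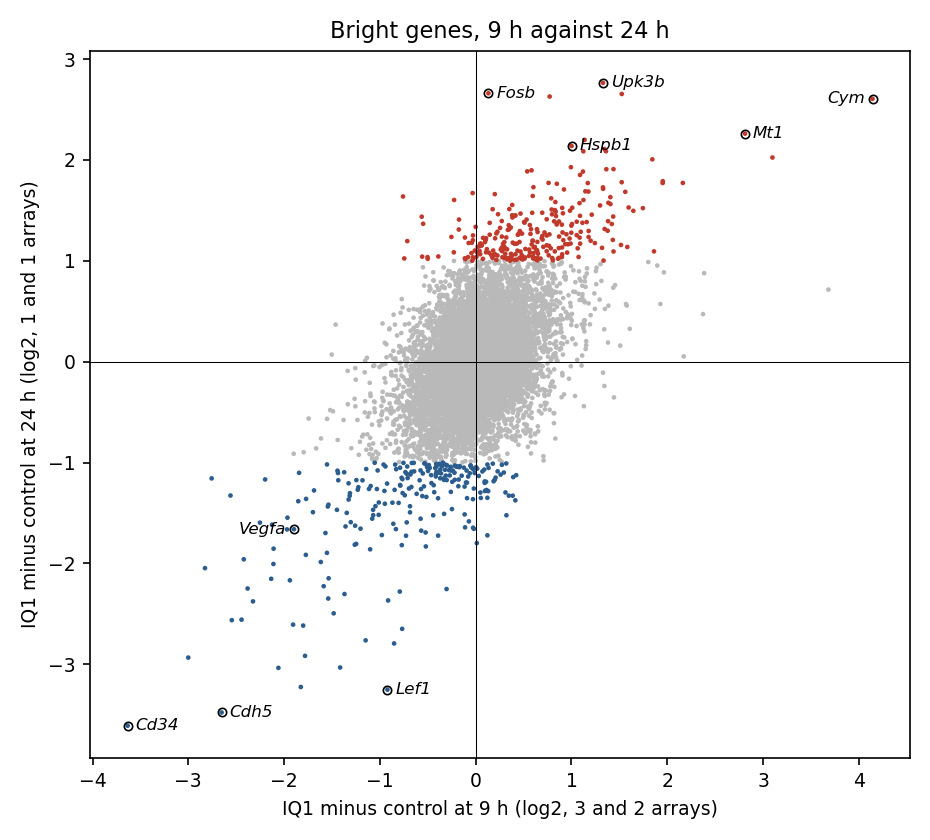
Each point is a bright gene, with IQ1 minus control at 9 h (log2, 3 IQ1 arrays and control replicates 1 and 3) on the x axis and at 24 h (log2, 1 array each) on the y axis. Red points are the 274 genes higher and blue points the 246 genes lower by more than 1 log2 at 24 h. Most coloured points have the same sign on both axes, while Fosb lies near 0 on the 9 h axis.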

How the data were processed

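Expression was measured on 8 Agilent mouse arrays of cultured lungs. According to the labels and methods, RNA was amplified as whole-transcriptome cDNA, and the authors corrected spot intensities with NormExp in limma, took logs and quantile-normalised them, so the deposited values are log2 intensities per spot (2.49 to 16.0). All arrays share 1 distribution with a median of 6.29, which hides differences in total signal. Spots near 16.0 are at the limit of the scale, and the signal over background of a spot is not given, so array number and dim signals limit the precision.

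Of 62976 spots, 43941 were named through accession, symbol or synonym in RefSeq, and 19035 without a name were left out, as were 8 with a missing value. The brightest spot by mean over the 8 arrays was kept for each of 24304 genes. IQ1 minus control was computed with pandas 2.3.3, with 1 log2 as threshold and no test. Named are, per direction, the 12 bright genes of largest difference whose other bright spots all passed 1 log2, the 8 bright genes of largest difference, the qPCR panel and members of 48 lists that passed 1 log2 or are central. Members and lists were chosen with earlier results of these data known. The procedure was tested on simulated data with less noise than these arrays. That test does not measure how often a call at 1 log2 is wrong here. Alternatives concerned the spot kept, the members of the FGF10 signature, a filter on dim genes, the threshold, centring, loess and naming.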

Additional observations from a re-analysis of the deposited data

Results flagged for a closer look

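In 3 bright genes past 1 log2 at 24 h the 9 h arrays lay apart in the opposite direction, with all 6 counted, a difference between the times that was not tested. All 3 were lower at 24 h. They made up 1.22% of the 246 lower genes, where 11.5% of all bright genes had 9 h IQ1 arrays all above the controls. Such an opposite order was thus rarer than over all bright genes. Without control replicate 2, 6 genes lay apart in the opposite direction. The others were Adamts4, Cyp26b1 and Depp1, which were higher at 24 h by 1.20, 1.02 and 1.64 log2 and had 9 h differences of −0.71, −0.75 and −0.76. The non-coding RNA 2410006H16Rik was at 8.82 with IQ1 and 10.19 in the control at 24 h (−1.37), whereas at 9 h it was at 9.96, 9.36 and 9.33 with IQ1, against 8.97, 4.74 and 9.30 in the controls. Zcchc4, a zinc finger methyltransferase, had a difference of −1.33 at 24 h and of 0.35 at 9 h without control replicate 2, with −0.51 at 24 h by its second bright spot. Cyth1, an exchange factor for ARF GTPases, had −1.01 at 24 h and 0.32 at 9 h, with −0.24 by its second bright spot.

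Spots without a gene name entered no comparison, and 149 of the 6973 bright ones among them (2.14%) differed by more than 1 log2 between the 24 h arrays, 76 higher and 73 lower with IQ1. Their differences lay between −2.88 and 3.18 log2.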

How the results depend on the processing

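No paired analysis was possible because each condition had 1 array at 24 h. Among bright genes alone 274 were higher and 246 lower, at 1.5 log2 the counts were 337 and 383, and at 2 log2 they were 87 and 138, against 1371 and 1209 as reported. The other 7 settings gave 1139 to 1378 higher and 1024 to 1298 lower genes. Over all settings the medians of the 48 lists stayed within the spread between arrays of the same treatment at 9 h in 358 cases and moved further in 27. The interferon and surfactant lists had medians of 0.07 each, and −0.23 and −0.51 over bright genes. The FGF10 signature had a median of −0.29 with the spot that was brightest at 24 h, −0.51 over 7 arrays, −0.54 for the mean of all spots, −0.064 for bright genes and −0.57 with spots under a mean of 14 (a setting added after seeing the data). The WNT targets had −0.27 for the mean of all spots and −0.083 for bright genes, and retinoic acid genes 0.85 for bright genes. For the 52 named genes 396 values stayed within that spread and 14 moved further, and Cd55 was at 0.96 with the spot that was brightest over 7 arrays. With control replicate 2 included the r of 9 h on 24 h was 0.24 and 56 lower genes were below all controls at 9 h. Of 2580 genes past 1 log2, 2060 were dim, where weak signal limits what 2 arrays can show.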

Other observations

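In the groups not described above few genes passed 1 log2, and such counts stand beside shares of 5.64% higher and 4.97% lower over all genes. In the heat shock list 2 of 14 were higher, Hspb1 and the dim gene Hspa1a (7.70 with IQ1 and 5.20 in the control), while Hspa8 and Hsp90ab1, the constitutive chaperones, differed by 0.12 and 0.06. Among targets of the aryl hydrocarbon receptor and of NRF2, 3 of 14 were higher and 2 were lower. Hmox1, haem oxygenase, was at 12.96 with IQ1 and 11.87 in the control. Srxn1 was at 8.11 with IQ1 and 6.51 in the control, and Tiparp at 8.90 with IQ1 and 7.85 in the control. Among the lower genes, Ahrr was dim, with −1.46 by its brightest spot and −0.89 by its second. Nqo1 differed by −0.18 and Cyp1a1, dim in both, by −0.50. In the Hedgehog list 2 of 12 were higher and 2 were lower, with the coreceptor gene Cdon at 12.58 with IQ1 and 11.48 in the control and its relative Boc at 8.73 with IQ1 and 9.93 in the control, while other bright spots gave 1.31 and 0.11 for Cdon and 0.08 for Boc.

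The matrix lists held few such genes. Of 14 collagen chains 2 were higher, Col12a1 and the dim gene Col14a1, and Col4a1, a chain of basement membranes, had 8.91 with IQ1 and 9.63 in the control. Lama3 was the single laminin or basement membrane gene of 12 past 1 log2. Of 16 matrix proteases and inhibitors 1 was higher and 2 were lower, with the protease gene Adamts9 at 7.41 with IQ1 and 8.83 in the control. In the neural list 2 of 11 were lower, in the cartilage list 1 of 10 was higher, in the BMP list 2 of 13 were higher and 1 was lower, with Id4 higher by 1.53 log2, and in the interferon list 3 of 13 were higher, all dim. Of 13 imprinted genes Igf2 was higher and Peg10 lower by more than 1 log2. In the remaining lists, 2 of 11 dual-specificity phosphatases were higher and 4 were lower, 1 of 10 FGF ligands and receptors was higher, and 2 of 10 VEGF ligands and receptors and 1 of 3 genes of the CXCL12 axis were lower.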
